A study of Mus musculus with 39 samples.

Results

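Fibronectin (Fn1), tenascin C (Tnc), thrombospondin 1 and 2 (Thbs1, Thbs2), periostin (Postn), osteonectin (Sparc) and collagen triple helix repeat containing 1 (Cthrc1) are secreted glycoproteins of the matrix that fibroblasts lay down in wounds. The 7 genes were taken by symbol from a table of 30012 genes, and all 7 were among the 14419 genes that passed the filter on low counts. Counts of 5′ RNA ends were measured in 39 libraries from cultured lung fibroblasts of wild-type C57BL/6 mice. The cells had been depleted magnetically of CD45, CD31, EpCAM, CD146 and Ter119 positive cells, grown with 10% fetal bovine serum and starved of serum for 24 h. C1q, which binds targets and starts the classical route of complement, was then added at 1, 10 or 100 µg/ml for 2, 24, 48 or 72 h, and untreated cells were taken at 0 h, which gave 13 groups of 3 libraries. No untreated library from a later time is among the 39. C1q and time in culture therefore cannot be told apart in a comparison with untreated cells. The serial numbers in the library names skip 9 values, and the sources used here do not say what these were. Comparisons between doses at the same time hold time fixed, but no group received a control protein.

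These proteins do not mainly serve as structural fibres. Fibronectin is assembled by integrins into the early fibrillar scaffold on which collagen is later deposited, and the others, often called matricellular proteins, tune adhesion, growth factor activity and collagen assembly. In lung, several of them are known as products of activated fibroblasts in injury and fibrosis.

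On the RefSeq annotation of GRCm38.p6 the genes lie on separate chromosomes. Fn1 spans chr1:71585473-71653280, Thbs1 chr2:118111876-118127133, Postn chr3:54359267-54391041 and Tnc chr4:63959785-64047015. Sparc spans chr11:55394159-55420080, Cthrc1 chr15:39076932-39087121 and Thbs2 chr17:14665500-14694262. Transcripts on the opposite strand overlap Fn1 (Apol7d, 14 counts in all libraries against 98509 for Fn1) and Tnc (8030451A03Rik, 83 counts against 15894 for Tnc). An opposite-strand lincRNA, Gm29233, also overlaps Thbs1 (62859 counts) and has no row in the table, so its counts were not compared. Whether counting used the strand is not given in the sources used here.

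RefSeq promoter windows of 300 bases, from 250 before the start to 50 after it on GRCm38.p6, were matched for 4 of the 7 genes. A window is shown for each of these 4 genes, since none was matched for Fn1, Thbs1 and Cthrc1. Of the 4 genes, Tnc was highest at 2 h, Thbs2 and Sparc were highest at 72 h, and Postn was lowest at 72 h. Capitals mark matches, on either strand, to the letters TATAAA, a core promoter box, or to CAGAC, an element bound by SMAD factors, both written 5′ to 3′.
Tnc, chr4:64046966-64047265, minus strand: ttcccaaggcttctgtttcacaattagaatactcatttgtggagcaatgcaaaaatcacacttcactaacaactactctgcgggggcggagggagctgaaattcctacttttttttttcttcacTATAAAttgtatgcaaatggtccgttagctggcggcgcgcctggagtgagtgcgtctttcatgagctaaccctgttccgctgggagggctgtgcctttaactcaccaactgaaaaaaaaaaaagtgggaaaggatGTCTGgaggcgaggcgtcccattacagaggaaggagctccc
Thbs2, chr17:14694213-14694512, minus strand: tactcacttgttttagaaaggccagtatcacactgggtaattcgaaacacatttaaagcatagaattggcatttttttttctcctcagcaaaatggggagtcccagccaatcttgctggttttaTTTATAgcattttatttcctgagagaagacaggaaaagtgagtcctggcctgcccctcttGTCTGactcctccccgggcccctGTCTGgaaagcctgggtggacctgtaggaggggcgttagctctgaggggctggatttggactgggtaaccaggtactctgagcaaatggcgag
Sparc, chr11:55420031-55420330, minus strand: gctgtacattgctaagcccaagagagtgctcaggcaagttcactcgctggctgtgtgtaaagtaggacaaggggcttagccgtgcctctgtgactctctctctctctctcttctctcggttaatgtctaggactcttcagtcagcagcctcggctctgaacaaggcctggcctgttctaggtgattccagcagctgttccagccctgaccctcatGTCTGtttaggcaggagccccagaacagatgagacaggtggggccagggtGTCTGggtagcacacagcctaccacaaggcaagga
Postn, chr3:54360857-54361156, plus strand: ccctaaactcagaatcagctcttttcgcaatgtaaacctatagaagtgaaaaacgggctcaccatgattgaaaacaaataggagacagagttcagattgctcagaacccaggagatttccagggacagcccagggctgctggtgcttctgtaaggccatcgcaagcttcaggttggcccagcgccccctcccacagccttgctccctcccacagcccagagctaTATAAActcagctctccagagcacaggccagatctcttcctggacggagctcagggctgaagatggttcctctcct
TATAAA was found at position -26 in the Postn window and at -126 in the Tnc and Thbs2 windows (in Thbs2 on the opposite strand), where the start is position 1. Of 32851 windows of the same length, 13.6% held a match to it. The SMAD element was found in the Tnc, Thbs2 and Sparc windows, and 49.6% of all windows held it. No match to TGANTCA (AP-1, in 7.81% of windows), CATTCC (TEAD, in 14.7%) or the CArG box (in 1.63%) was found in these windows. A match is only a match of letters and was not tested for function. Tnc and Postn each had a further window, not shown, with fewer coding transcript starts of the GENCODE annotation within 50 bases of it.

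Library totals ran from 1806106 to 3012518 counts, and levels are given in CPM (counts scaled to a common library size) after TMM, a normalisation on the bulk of the genes. Differences are log2 differences ± standard error from edgeR's quasi-likelihood test, fitted on all 39 libraries, with p adjusted by the Benjamini-Hochberg method over the 14419 genes. A gene is said to have risen or fallen where adjusted p was under 0.05. The labels do not say that the libraries of a group came from separate cultures, so the p-values measure the spread between libraries, which may be technical. Fibroblast markers (9 genes, among them Col1a1, Col1a2 and Pdgfra) summed to 6988 to 10580 CPM, and none was at 0 in any group. At 24 h and 1 µg/ml the third library was set apart from the others of its group on the first principal component (5.18 against -1.14 and -0.36). Results that turn on it are given with and without it.

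The 7 genes followed 4 courses in time, as the plot of levels by library shows. Thbs1 and Tnc rose within 2 h and were below the untreated level at 24 h. Cthrc1 was highest at 24 h at the lower doses and had no such peak at 100 µg/ml. Fn1, Thbs2 and Sparc were highest at 72 h. Postn had its highest group means at 2 h and its lowest at 72 h. From lowest to highest group mean the range was 17.2-fold for Thbs1, 12.3-fold for Tnc and 6.98-fold for Cthrc1. It was 2.96-fold for Fn1, 2.67-fold for Thbs2, 2.5-fold for Postn and 1.65-fold for Sparc.

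**Figure D1:**
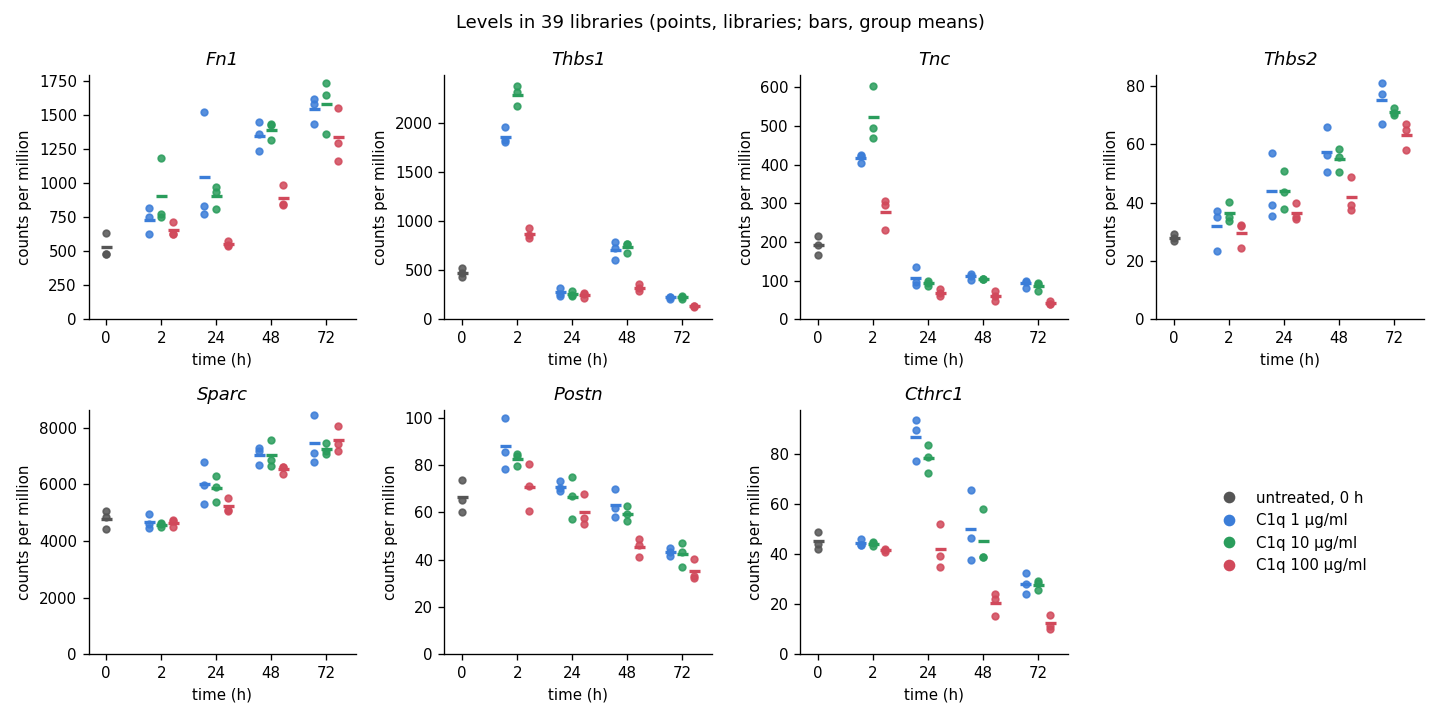
Levels in CPM of the 7 genes in each of 39 libraries (points) with group means (bars), by time in hours on the horizontal axis and by C1q dose in colour. Thbs1 and Tnc are highest at 2 h, Cthrc1 at 24 h at 1 and 10 µg/ml only, and Fn1, Thbs2 and Sparc at 72 h.

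Thrombospondin 1, which binds CD47 and CD36 and can release active TGF-beta from its latent complex, showed the largest early rise of the 7. Untreated libraries held 524, 430 and 468 CPM. After 2 h the libraries held 1951, 1818 and 1798 CPM at 1 µg/ml, 2164, 2372 and 2312 CPM at 10 µg/ml, and 831, 928 and 853 CPM at 100 µg/ml. Every treated library at 2 h lay above every untreated one, and all libraries at 100 µg/ml lay below all those at the lower doses. The log2 difference from untreated was 1.97 ± 0.11 at 1 µg/ml (adjusted p = 1.63e-19), 2.27 ± 0.11 at 10 µg/ml (7.54e-22) and 0.88 ± 0.10 at 100 µg/ml (2.9e-08).

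By 24 h Thbs1 had fallen below the untreated level at each dose, with 238 to 323 CPM at 1 µg/ml, 241 to 291 at 10 µg/ml and 221 to 273 at 100 µg/ml. These groups overlapped one another and lay wholly below the untreated libraries (log2 differences -0.79 ± 0.11, -0.87 ± 0.11 and -0.91 ± 0.11). A second rise followed at 48 h, to 601, 725 and 787 CPM at 1 µg/ml and 671, 763 and 768 CPM at 10 µg/ml, above every untreated library. At 100 µg/ml the 48 h libraries held 358, 322 and 285 CPM, still below untreated (-0.56 ± 0.11, adjusted p = 2.76e-05). At 72 h Thbs1 was at its lowest, with means of 223 ± 14.8, 225 ± 16.6 and 133 ± 7.87 CPM (SD, n = 3) at 1, 10 and 100 µg/ml.

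Tenascin C, a large multi-armed glycoprotein that is scarce in resting adult tissue and made at wound edges, shared the early rise. Untreated libraries held 216, 166 and 192 CPM. At 2 h they held 423, 405 and 425 CPM at 1 µg/ml, 493, 604 and 470 CPM at 10 µg/ml, and 232, 307 and 295 CPM at 100 µg/ml. None of the treated libraries overlapped the untreated ones (1.12 ± 0.12, 1.45 ± 0.12 and 0.54 ± 0.13, adjusted p = 3.04e-09, 1.3e-12 and 0.00529). The rise at 100 µg/ml rested on single libraries: it was 0.46 (adjusted p = 0.061) without the second library at that dose and 0.44 (adjusted p = 0.0692) without the second untreated library.

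Tnc stayed below the untreated level at 24, 48 and 72 h at each dose. Its log2 difference from untreated at 24 h was -0.85 ± 0.13, -1.03 ± 0.13 and -1.47 ± 0.14 at 1, 10 and 100 µg/ml, and at 48 h it was -0.79 ± 0.13, -0.87 ± 0.13 and -1.68 ± 0.14. At 72 h libraries held 97.2, 82.1 and 99.7 CPM at 1 µg/ml, 72.4, 94.2 and 91.0 CPM at 10 µg/ml, and 40.04, 39.3 and 48.0 CPM at 100 µg/ml. All 9 lay below the untreated libraries, and those at 100 µg/ml lay below all others. Tnc at 100 µg/ml and 72 h was thus 4.52-fold below untreated (adjusted p = 1.3e-16). Averaged over doses, the level at 48 h did not differ detectably from that at 24 h (0.01 ± 0.08), whereas Thbs1 rose by 1.07 ± 0.06 over the same interval. At 10 µg/ml Tnc libraries held 86.7 to 99.5 CPM at 24 h and 105 to 106 CPM at 48 h, without overlap. At 100 µg/ml they held 61.0 to 78.4 and then 47.2 to 73.1 CPM. At 1 µg/ml they held 88.1, 96.1 and 137 CPM and then 103 to 117 CPM. The step was not tested within a dose.

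Cthrc1, a secreted protein known from activated and fibrosis-associated fibroblasts, did not pass the test at 2 h: its libraries held 40.97 to 45.9 CPM after C1q and 42.1 to 48.9 CPM untreated. At 24 h they held 93.5, 89.7 and 77.1 CPM at 1 µg/ml and 83.4, 78.8 and 72.3 CPM at 10 µg/ml. Libraries at 100 µg/ml held 34.8, 51.9 and 39.4 CPM. The lower doses lay wholly above untreated (0.95 ± 0.15 and 0.80 ± 0.15, adjusted p = 1.85e-06 and 5.05e-05), while 100 µg/ml overlapped it (-0.09 ± 0.16, adjusted p = 0.684). By 72 h Cthrc1 had fallen below untreated at each dose, by 0.68 ± 0.17, 0.70 ± 0.17 and 1.86 ± 0.20 on the log2 scale at 1, 10 and 100 µg/ml.

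Fibronectin mRNA was highest at 72 h at each dose. Untreated libraries held 638, 483 and 481 CPM. At 24 h they held 830, 774 and 1525 CPM at 1 µg/ml, 970, 814 and 937 CPM at 10 µg/ml, and 541, 547 and 574 CPM at 100 µg/ml. At the lower doses all libraries lay above untreated (0.96 ± 0.16 and 0.76 ± 0.16), and at 100 µg/ml they overlapped it (0.05 ± 0.16, adjusted p = 0.824). The value at 1 µg/ml was 0.58 (adjusted p = 0.000954) without the third library.

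At 72 h Fn1 libraries held 1616, 1436 and 1580 CPM at 1 µg/ml, 1358, 1733 and 1650 CPM at 10 µg/ml, and 1298, 1160 and 1553 CPM at 100 µg/ml. The 3 doses overlapped and all lay above untreated (1.53 ± 0.16, 1.56 ± 0.16 and 1.32 ± 0.16, adjusted p = 6.58e-11, 3.16e-11 and 2.08e-09). At 2 h Fn1 had risen at 10 µg/ml (0.76 ± 0.16, adjusted p = 0.000532). That value was 0.50 (adjusted p = 0.0336) without the second library, which held 1186 CPM against 775 and 751. At 1 and 100 µg/ml the 2 h libraries overlapped the untreated ones and Fn1 did not pass the test (0.46 ± 0.16 and 0.29 ± 0.16, adjusted p = 0.0775 and 0.342). Both passed with no filter on low counts (adjusted p = 8.43e-05 and 0.0425) and with only the libraries compared in the fit (0.00316 and 0.0222). The value at 1 µg/ml also passed without the first untreated library (0.60, adjusted p = 0.0357) or the second library at that dose (0.56, adjusted p = 0.0457).

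Thrombospondin 2, which binds matrix metalloproteinase 2 and takes part in collagen fibril assembly, went from 28.1, 26.8 and 29.4 CPM untreated to 81.0, 77.4 and 67.0 CPM at 1 µg/ml after 72 h. At 10 µg/ml the 72 h libraries held 70.2, 72.5 and 70.6 CPM, and at 100 µg/ml 66.9, 58.0 and 64.8 CPM. All 9 lay above every untreated library, and the log2 differences were 1.42 ± 0.15, 1.34 ± 0.15 and 1.16 ± 0.16. At 2 h it did not pass the test at any dose. Its rise at 24 h and 1 µg/ml (0.63 ± 0.16, adjusted p = 0.0027) was 0.41 (adjusted p = 0.0758) without the third library. Its rise at 48 h and 100 µg/ml (0.57 ± 0.17) was 0.43 (adjusted p = 0.0681) without the first library of that group.

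Sparc, a collagen-binding glycoprotein that loosens cell adhesion, rose by less. Untreated libraries held 5072, 4865 and 4418 CPM. At 72 h they held 8440, 6802 and 7099 CPM at 1 µg/ml, 7069, 7194 and 7467 CPM at 10 µg/ml, and 8063, 7178 and 7429 CPM at 100 µg/ml. The doses overlapped and all lay above untreated (0.64 ± 0.08, 0.60 ± 0.08 and 0.66 ± 0.08). At 24 h Sparc had risen at 1 µg/ml (0.33 ± 0.08, adjusted p = 0.00164) and did not pass the test at 100 µg/ml (0.13 ± 0.08, adjusted p = 0.222). Its rise at 24 h and 10 µg/ml (0.29 ± 0.08, adjusted p = 0.0052) was lost without the third untreated library (0.22, adjusted p = 0.0843) or the first library at that dose (0.22, adjusted p = 0.0741).

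Periostin, an integrin ligand that links collagen and tenascin, ended lower. Untreated libraries held 73.7, 65.3 and 60.0 CPM. At 72 h they held 44.8, 43.3 and 41.4 CPM at 1 µg/ml, 47.2, 43.4 and 37.0 CPM at 10 µg/ml, and 32.9, 40.1 and 32.2 CPM at 100 µg/ml. All 9 lay below untreated (-0.62 ± 0.13, -0.64 ± 0.12 and -0.91 ± 0.13, adjusted p = 9.15e-05, 4.43e-05 and 1.62e-07). A small rise at 2 h and 1 µg/ml (0.40 ± 0.11, adjusted p = 0.0235) did not survive leaving out any 1 of 3 libraries: it was 0.38 (adjusted p = 0.0893) without the second untreated library, 0.32 (0.177) without the third untreated library and 0.29 (0.229) without the first treated library.

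**Figure D2:**
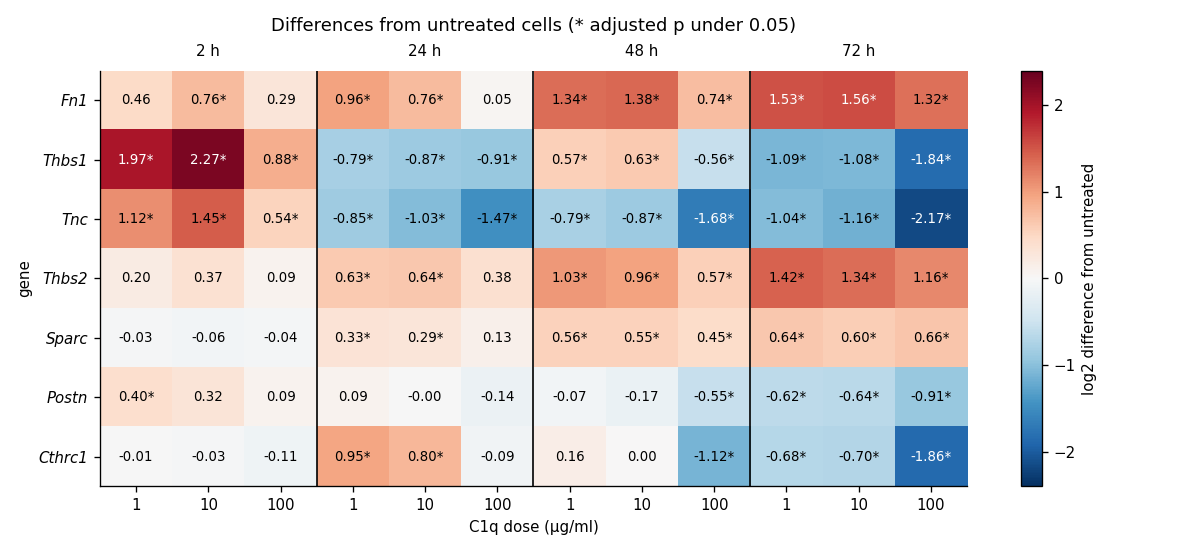
Log2 difference from untreated cells for the 7 genes (rows) at each C1q dose in µg/ml and time (columns), with red for higher and blue for lower, and an asterisk where adjusted p was under 0.05. At 72 h, Fn1, Thbs2 and Sparc are higher and Thbs1, Tnc, Postn and Cthrc1 lower at each of the 3 doses.

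Counted over the 7 genes, 3, 3 and 2 differed from untreated at 2 h at 1, 10 and 100 µg/ml, and all of these were higher. Of all tested genes, 6.15%, 12.7% and 5.16% differed. At 24 h 6, 6 and 2 of the 7 differed, against 25.2%, 27.8% and 36.7% of all genes. At 48 h 5, 5 and 7 differed, against 33.1%, 34.5% and 40% of all genes, and at 72 h all 7 differed at each dose, against 38.2%, 39.9% and 45.8%. At 72 h 3 of them were higher and 4 lower, and the median log2 difference of the 7 was -0.62, -0.64 and -0.91, beside 0.02, 0.02 and 0.05 for all tested genes. These 12 comparisons share the same 3 untreated libraries.

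Between successive times, averaged over doses, 6 of the 7 changed at each step. Of all tested genes 57.9% changed from 2 to 24 h, 24.9% from 24 to 48 h and 16.7% from 48 to 72 h. From 2 to 24 h the falls of Thbs1 (-2.56 ± 0.06) and Tnc (-2.15 ± 0.08) were 5.90-fold and 4.44-fold. From 24 to 48 h Thbs1 rose by 1.07 ± 0.06 and Fn1 by 0.56 ± 0.09, while Cthrc1 fell by 0.87 ± 0.09. From 48 to 72 h Thbs1 fell by 1.55 ± 0.06, Cthrc1 by 0.76 ± 0.11 and Postn by 0.46 ± 0.08, and Thbs2 rose by 0.45 ± 0.08. Averaged in this way, Fn1 did not pass the test from 2 to 24 h (0.09 ± 0.09, adjusted p = 0.402), but its doses moved unlike one another. Its mean went from 733 to 1043 CPM at 1 µg/ml, where the third library at 24 h held 1525 CPM. At 10 µg/ml it went from 904 to 907 CPM, and at 100 µg/ml from 656 to 554 CPM, without overlap. The step was not tested within a dose. Sparc did not pass from 48 to 72 h (0.11 ± 0.05, adjusted p = 0.0986). It passed there without the third library at 10 µg/ml and 48 h (0.14, adjusted p = 0.048).

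The dose comparison asked whether cells at the same time differed between 1, 10 and 100 µg/ml. Where a gene passed the test, it was lower at 100 µg/ml than at the lower dose, in every such comparison. Against 1 µg/ml, 2, 3, 6 and 3 of the 7 genes were lower at 2, 24, 48 and 72 h, and 0 were higher. Of all tested genes 3.22%, 11%, 10.3% and 11.5% differed in either direction. Against 10 µg/ml, 2, 3, 4 and 3 were lower and 0 higher, beside 3.53%, 10%, 9.32% and 10.6% of all genes.

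Thbs1 was lower at 100 than at 1 µg/ml at 2 h (-1.09 ± 0.10, adjusted p = 1.02e-10), 48 h (-1.13 ± 0.11, 5.46e-11) and 72 h (-0.75 ± 0.11, 3.97e-06). At 24 h, between its rises, the difference was -0.12 ± 0.11 with a 95% interval from -0.34 to 0.09. Tnc was lower at each of the 4 times, by 0.59 ± 0.12, 0.62 ± 0.14, 0.89 ± 0.15 and 1.13 ± 0.16 on the log2 scale. The third library at 1 µg/ml and 24 h held 137 CPM of Tnc, against 88.1 and 96.1 CPM in the others of its group. With 1 library left out, the 24 h Tnc difference ran from -0.74 to -0.43, and the call was kept. Cthrc1 did not pass the test at 2 h (-0.10 ± 0.16) and was lower at 24, 48 and 72 h (-1.05 ± 0.14, -1.28 ± 0.18 and -1.19 ± 0.22). In each of these calls the libraries of the 2 doses did not overlap.

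For Fn1 the difference between 100 and 1 µg/ml was -0.16 ± 0.16 at 2 h, -0.91 ± 0.16 at 24 h, -0.60 ± 0.16 at 48 h and -0.21 ± 0.15 at 72 h, and it passed the test at 24 and 48 h. The 24 h value was -0.55 (adjusted p = 0.0025) without the third library of 1 µg/ml. The headers of 9 count columns are spelled in another way, and the labels do not say what this marks. They hold every library at 10 and 100 µg/ml at 24 h and the third at 1 µg/ml and 24 h. The first and second libraries at 1 µg/ml and 48 h are the others. No untreated or 2 h library has this spelling. It therefore cannot be told apart from treatment in the 24 h comparisons of 10 and 100 µg/ml with untreated. Comparisons with 1 µg/ml at 24 h mix both spellings. Within the columns of the other spelling the Fn1 difference at 24 h was -1.46 and that of Tnc was -0.98. That set holds 1 library at 1 µg/ml, the one that stood apart.

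Postn (-0.48 ± 0.13, adjusted p = 0.0103) and Thbs2 (-0.46 ± 0.15, adjusted p = 0.0359) were lower at 100 than at 1 µg/ml at 48 h. Without the third library at 1 µg/ml the adjusted p was 0.0744 for Postn and 0.0678 for Thbs2. Without the first library at 100 µg/ml that of Postn was 0.091, and for Thbs2 it was 0.198, 0.173 and 0.129 without the first library at 1 µg/ml, the second at 100 µg/ml and the third at 100 µg/ml. Thinning every library to the smallest total also lost the Thbs2 call (-0.455, adjusted p = 0.0563). Columns of the more common header spelling, which hold only the third library at 1 µg/ml and 48 h, gave -0.43 for Thbs2. Sparc passed at none of the times. Its 72 h difference was 0.02 ± 0.08 (95% interval -0.14 to 0.18). At 24 h it was -0.21 ± 0.08 (adjusted p = 0.0953), and it became -0.31 (adjusted p = 0.00719) without the third library at 1 µg/ml.

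Against 10 µg/ml, Thbs1 at 100 µg/ml was lower by 1.39 ± 0.10 at 2 h and 1.19 ± 0.11 at 48 h, and Cthrc1 by 0.89 ± 0.15 at 24 h and 1.13 ± 0.19 at 48 h. Tnc was lower by 0.91 ± 0.12 at 2 h, 0.81 ± 0.15 at 48 h and 1.02 ± 0.16 at 72 h. Its call at 24 h (-0.43 ± 0.14, adjusted p = 0.0434) was lost without any 1 of 5 libraries, with adjusted p from 0.0523 to 0.186. Those were the 3 libraries at 10 µg/ml and the first and second at 100 µg/ml.

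Between 10 and 1 µg/ml, 0 of the 7 genes passed edgeR's test at any time. Of all genes 0.839%, 0.0485%, 0.208% and 0% passed at 2, 24, 48 and 72 h. At an unadjusted p under 0.05 there were 2 of the 7 at 2 h and 0 at each later time, and DESeq2 called 0 at each time. At 2 h Thbs1 was higher at 10 µg/ml by 0.30 ± 0.10 (95% interval 0.10 to 0.50, adjusted p = 0.236) and Tnc by 0.32 ± 0.12 (0.08 to 0.56, adjusted p = 0.349), and their libraries at the 2 doses did not overlap. At 72 h, where 0 of all genes passed, 611 had an unadjusted p under 0.05 and DESeq2 called 0.

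**Figure D3:**
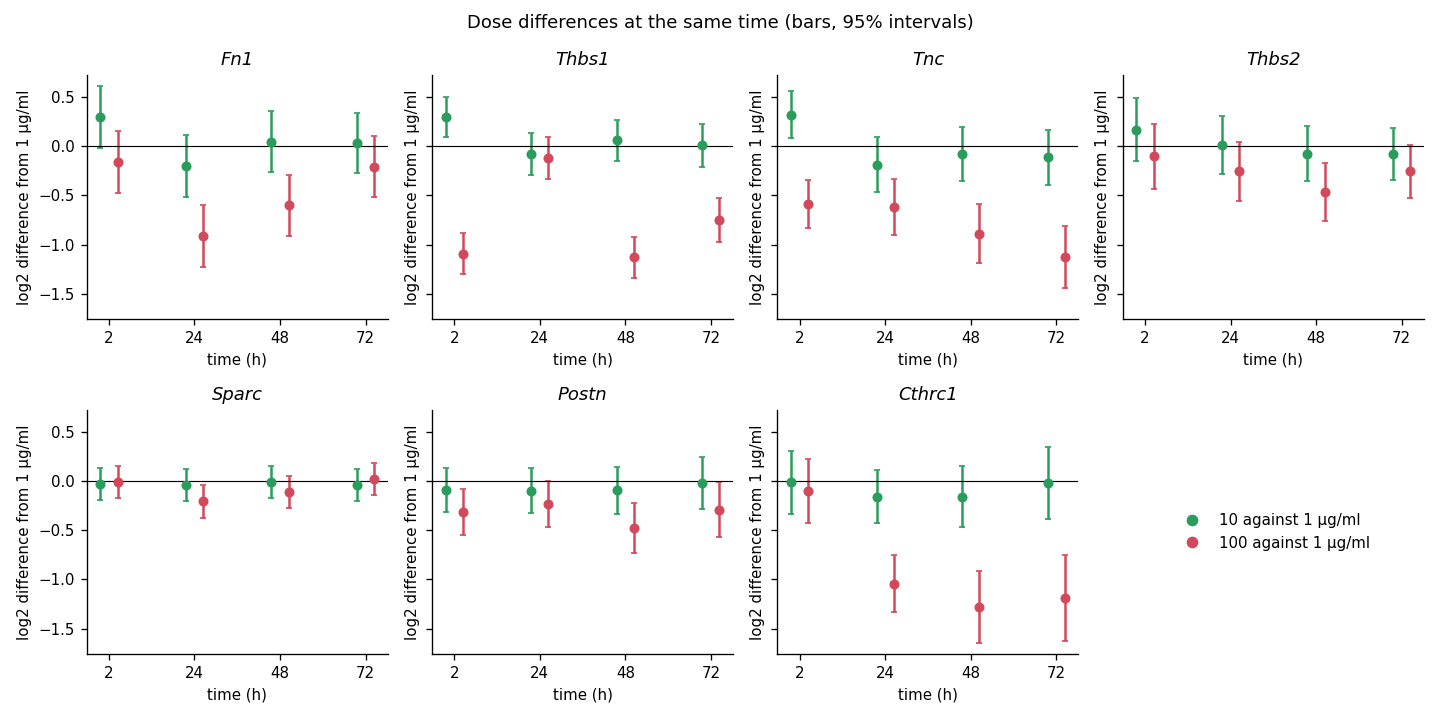
Log2 difference of 10 (green) and 100 µg/ml (red) from 1 µg/ml at the same time, by gene, with 95% intervals as bars. The 10 µg/ml points lie between -0.20 and 0.32, while at 100 µg/ml Thbs1, Tnc and Cthrc1 reach -1.13, -1.13 and -1.28.

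Whether the difference between 100 and 1 µg/ml itself changed with time was tested over the 4 times together. It did for Thbs1 (adjusted p = 9.73e-06) and Cthrc1 (adjusted p = 0.00181), and 6.78% of all genes passed this test. Fn1 (adjusted p = 0.0544) and Tnc (0.215) did not pass it, nor did Thbs2 (0.713), Postn (0.789) and Sparc (0.496). Fn1 passed without LOC118568312, a gene that held a large part of all counts (adjusted p = 0.04), and without any 1 of 5 libraries (adjusted p from 0.00935 to 0.0467). These were the first library at 1 µg/ml and 2 h, the first and the second at 1 µg/ml and 24 h, the first at 100 µg/ml and 48 h and the second at 100 µg/ml and 72 h. Tnc passed without the third library at 1 µg/ml and 24 h (adjusted p = 0.0389).

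Steps between successive times were tested as contrasts added after the data were seen. From 2 to 24 h the Thbs1 difference between doses shrank, with a change of 0.97 ± 0.15 (adjusted p = 2.33e-05), and from 24 to 48 h it widened again by -1.01 ± 0.15 (adjusted p = 6.89e-05). The Cthrc1 difference widened from 2 to 24 h by -0.95 ± 0.22 (adjusted p = 0.00491). For Fn1 that step was -0.75 ± 0.22 (adjusted p = 0.0355), and it was -0.39 (adjusted p = 0.201) without the third library at 1 µg/ml and 24 h. It also lost its call without the second library of 1 µg/ml or the third of 100 µg/ml at 2 h (adjusted p = 0.1 and 0.0843), without any 1 library of 100 µg/ml at 24 h (0.0539 to 0.0634) and by DESeq2 (0.0918). Of all genes 4.89% passed from 2 to 24 h, 0.583% from 24 to 48 h and 0% from 48 to 72 h. At the last step 0 of the 7 passed edgeR's test, 1 had an unadjusted p under 0.05 and DESeq2 called 0. Of all genes 935 had such a p at that step, and DESeq2 called 2.

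Across the 13 group means, Thbs1 and Tnc moved together (Pearson's r = 0.91), as did Fn1 and Thbs2 (0.94) and Thbs2 and Sparc (0.94). Postn had an r of 0.82 with Tnc, 0.79 with Thbs1 and 0.79 with Cthrc1. These values describe groups that share time points and are not a test. Among 5447 genes of at least moderate level, the 3 whose group means were most like those of Thbs1 were Inhba, a subunit of activins (r = 0.99), Fam107b (0.99) and Nmd3 (0.99). For Tnc they were Rsl1d1, Lrrfip1 and Rnps1 (0.98 each). Those most like Sparc were Apoe, C3 and Cpq (0.99 each), and those most like Thbs2 were Gpc3 (0.98), the C1q chain gene C1qb (0.97) and Gdf10 (0.97). Hacd3 (0.97), Sema5a (0.95) and Slc8a1 (0.94) came first for Fn1, Npr3 (0.96), Pcgf5 (0.94) and Csrp2 (0.94) for Postn, and the ion channel gene Piezo2 (0.94), Eif3h (0.93) and Rplp0 (0.92) for Cthrc1.

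Markers of other cells moved over the same times as the late genes. Macrophage markers (12 genes) summed to 272 to 297 CPM in untreated libraries and to 1247 to 1336, 1399 to 1615 and 944 to 1160 CPM at 72 h at 1, 10 and 100 µg/ml. None was at 0, and Ptprc, which encodes CD45, had means of 3.35 CPM untreated and 14.02, 13.8 and 8.62 CPM at 72 h. Mesothelial markers (5 genes) went from a mean of 255 CPM to 532, 457 and 349 CPM. Both sums were high at the times at which Fn1, Thbs2 and Sparc were high, and both were lower at 100 µg/ml than at the lower doses at 72 h. Most of the macrophage sum was Lyz2, with means of 201 CPM untreated and 682, 854 and 673 CPM at 72 h. At 72 h Adgre1 (17.3 against 15.4 CPM) and Cd14 (37.2 against 35.0 CPM) were not lower at 100 than at 1 µg/ml, while the other macrophage markers had lower means. The part of these markers in these results was not tested. In bulk samples, fewer cells of a type and less RNA per cell cannot be told apart.

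Markers of cycling cells (6 genes) went from a mean of 852 CPM untreated to 130, 129 and 106 CPM at 72 h, the time at which Tnc, Thbs1, Postn and Cthrc1 were lowest. Epithelial markers (10 genes) went from 538 to 113, 103 and 105 CPM, with Scgb1a1 at 0 at 72 h at 1 and 100 µg/ml. Endothelial markers (7 genes) ranged from 44.9 to 113 CPM and mural markers (5 genes) from 45.4 to 115 CPM, with none at 0.

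Some marker sums also differed between doses at some of the times at which members did. At 24 h fibroblast markers summed to 6988 to 7686 CPM at 100 µg/ml, below 8609 to 10150 CPM at 1 µg/ml and 9061 to 9495 CPM at 10 µg/ml. At 72 h they summed to 9711 to 10580 CPM at 100 µg/ml, above 8799 to 9323 CPM at 1 µg/ml. At 2 h the fibroblast sums at 100 and 1 µg/ml overlapped (7366 to 7636 and 7310 to 8532 CPM). Of the 9 fibroblast markers 5 were lower and 0 higher at 100 than at 1 µg/ml at 24 h, 4 and 0 at 48 h, and 1 and 2 at 72 h. Between these doses 11%, 10.3% and 11.5% of all tested genes differed in either direction at 24, 48 and 72 h. At 48 h endothelial markers summed to 44.9 to 62.0 CPM at 100 µg/ml and 76.8 to 88.0 CPM at 1 µg/ml, with 3 of 7 lower and 0 higher. Cycling cell markers then summed to 103 to 110 CPM at 100 µg/ml and 163 to 177 CPM at 1 µg/ml, with 4 of 6 lower and 0 higher, and 4 of 12 macrophage markers were lower and 0 higher. The part of these markers in the results was not tested either.

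**Figure D4:**
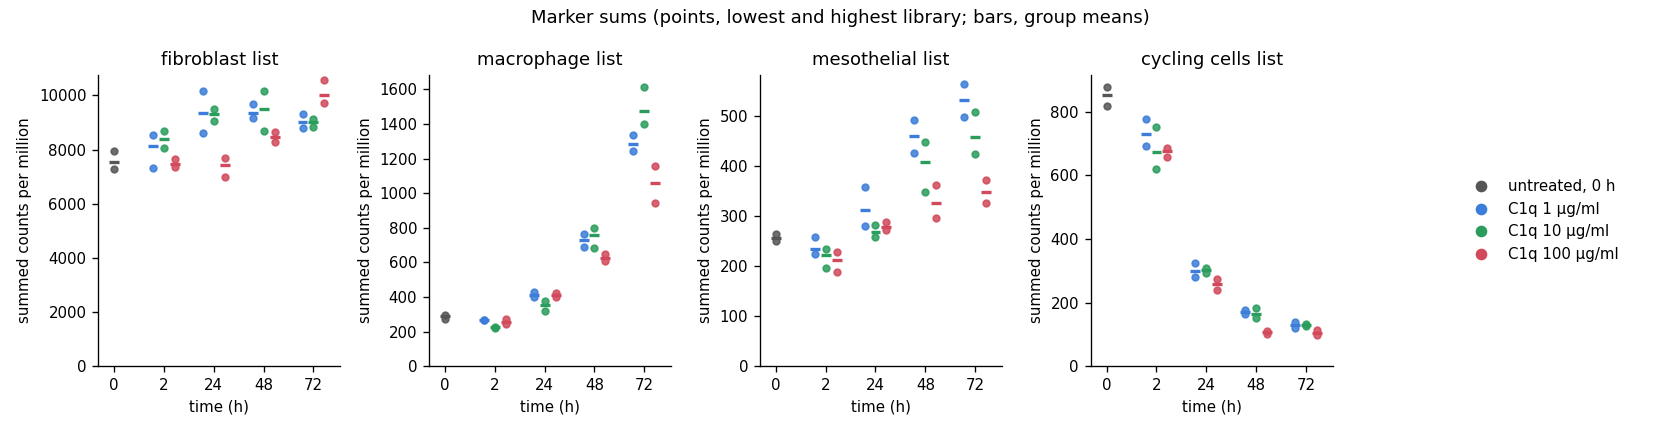
Summed CPM of fibroblast, macrophage, mesothelial and cycling cell markers by time in hours and C1q dose, with the lowest and highest library (points) and the group mean (bars). Macrophage markers have a mean of 289 CPM untreated and 1059 to 1478 CPM at 72 h, and cycling cell markers have 852 CPM untreated and 106 to 130 CPM at 72 h.

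Cell surface receptors of these proteins (18 genes, all tested) changed in part. At 2 h 2, 4 and 3 were higher at 1, 10 and 100 µg/ml and 0 were lower, where 6.15%, 12.7% and 5.16% of all genes differed, with list medians of 0.08, 0.15 and -0.03 beside -0.02, -0.03 and -0.03 for all genes. The fibronectin receptor subunit Itga5 rose by 1.24 ± 0.10, 1.54 ± 0.10 and 0.70 ± 0.11, and the syndecan Sdc4 by 0.85 ± 0.09, 0.98 ± 0.09 and 0.33 ± 0.09. Like Thbs1 and Tnc, both were lower at 100 than at 1 µg/ml at 2 h (-0.53 ± 0.10 and -0.53 ± 0.09). At 72 h and 1 µg/ml 6 receptors were higher and 6 lower, where 38.2% of all genes differed. Itgb5 had risen by 1.63 ± 0.17 and the thrombospondin receptor Cd36 by 1.54 ± 0.16, while Itga5 had fallen by 0.84 ± 0.12 and Itgb6 by 1.77 ± 0.25. Stab1, a scavenger receptor of macrophages and sinusoidal endothelium that takes up Sparc, rose by 2.54 ± 0.22.

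Of TGF-beta ligands, receptors and direct targets (13 genes, all tested), 6, 7 and 2 rose at 2 h at 1, 10 and 100 µg/ml and 0 fell, with list medians of 0.33, 0.38 and 0.28. The share of all genes that differed was 6.15%, 12.7% and 5.16%. At 1 µg/ml those that rose included the matricellular Ccn2 (1.18 ± 0.10) and the ligand Tgfb2 (0.69 ± 0.13). Ccn2 was lower at 100 than at 1 µg/ml at 2 h (-1.14 ± 0.10). At 72 h and 1 µg/ml 2 of the 13 were higher and 5 lower (list median -0.20, with 38.2% of all genes called). The log2 difference from untreated was then -1.45 ± 0.12 for Ccn2, in the same direction as for Thbs1 and Tnc, while the receptor Tgfbr2 was higher (1.07 ± 0.09).

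The list of YAP, SRF and mechanical targets (12 genes, all tested) holds genes that respond to cell tension and the actin cytoskeleton. At 2 h 5, 5 and 1 of them rose and 0, 0 and 2 fell, where 6.15%, 12.7% and 5.16% of all genes differed. At 24 h 0 rose and 12, 11 and 7 fell, with list medians of -0.82, -0.77 and -0.35 and with 25.2%, 27.8% and 36.7% of all genes called. From 24 to 48 h 10 rose and 0 fell (list median 0.70, beside 0.00063 for all genes), the step at which Thbs1 rose again and at which 24.9% of all genes changed. Ccn1 rose by 2.86 ± 0.08, Ankrd1 by 1.81 ± 0.17 and Srf by 1.63 ± 0.07. At 48 h 7 of the 12 were lower at 100 than at 1 µg/ml and 0 higher, among them Ankrd1 (-1.52 ± 0.25), Cnn1 (-1.20 ± 0.27) and Srf (-0.71 ± 0.12), where 10.3% of all genes differed. At 2 and 72 h 4 and 6 of the 12 were lower and 0 higher, where 3.22% and 11.5% of all genes differed. But at 24 h 3 were higher at 100 than at 1 µg/ml and 0 lower (list median 0.23, with 11% of all genes called).

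Relatives of the 7 genes (16 listed, 10 tested) gave 0 calls by edgeR at 2 h at each dose. At 72 h 8, 8 and 8 were higher and 1, 1 and 0 lower, with list medians of 1.04, 0.98 and 1.40 beside 0.02, 0.02 and 0.05 for all genes, of which 38.2%, 39.9% and 45.8% differed. At 1 µg/ml Sparcl1 rose by 1.64 ± 0.07 and Smoc2 by 1.497 ± 0.11, both relatives of Sparc, and Npnt fell by 0.43 ± 0.08. Thbs4 was also called, on counts of 8, 16 and 7 against 1, 0 and 0 in untreated libraries.

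Proteases that cut these proteins (13 listed, 12 tested) and matrix assembly and crosslinking genes (15, all tested) moved in both directions at 72 h and 1 µg/ml, where 38.2% of all genes differed. Of the proteases 7 were higher and 2 lower, among them the gelatinase Mmp2 (1.62 ± 0.11) and the urokinase receptor Plaur (-0.73 ± 0.15), which had risen at 2 h (1.09 ± 0.12). Of the assembly genes 5 were higher and 3 lower, with Fbln1 at 1.34 ± 0.11 and the lysyl oxidase relative Loxl3 at -0.98 ± 0.16. At 48 h the stromelysin Mmp3 was lower at 100 than at 1 µg/ml (-1.01 ± 0.08), as was Adamts1 (-0.69 ± 0.11).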

How the data were processed

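The submitters' processing notes name cutadapt 2.1.0, Bowtie2 2.4.2 and the build GRCm38; no source used here gives the counting tool or its use of strand. The authors deposited 1 table of whole-number counts of 5′ ends for 30012 genes in 39 libraries (1806106 to 3012518 counts each), read here as raw counts; arms of 3 libraries and these depths limit precision for low genes. No pair of libraries in a group agreed within sampling noise (chi-square per degree of freedom 1.306 to 8.484). Groups came from the labels.

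Here, 14419 genes (99.4% of counts) passed edgeR's filterByExpr. One edgeR 4.0.16 quasi-likelihood fit (R 4.3.3, TMM scaling) covered 13 groups, with Benjamini-Hochberg adjustment over all tested genes and a threshold of 0.05. Comparisons were each group against untreated, doses at the same time, successive times averaged over doses, and the 100 against 1 µg/ml difference across times. All 7 genes are described; from each further list up to 3 called rises and 3 called falls could be named, and 3 like genes per member by Pearson's r over group means (mean log2 CPM of at least 5). The values of 1 listed gene are not reported here. The members and lists were chosen with earlier results of these data known. The fit was tested on simulated data with known changes. Alternatives were RLE scaling, no filter, leaving out LOC118568312, thinning, only the libraries compared, columns of 1 header spelling, each library left out, and DESeq2 1.42.0. Promoter windows came from RefSeq (GRCm38.p6), and 28849 table names matched RefSeq symbols.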

Additional observations from a re-analysis of the deposited data

Results flagged for a closer look

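The difference between 100 and 1 µg/ml was not the same at the 4 times for Thbs1 (adjusted p = 9.73e-06 by edgeR's quasi-likelihood test of the difference itself) and for Cthrc1 (adjusted p = 0.00181). For Thbs1 the 2 h difference of -1.09 changed by 0.97 up to 24 h, and by -1.01 from 24 to 48 h. For Cthrc1 the change from 2 to 24 h was -0.95. For Fn1 it was -0.75, a call that rests on single libraries and was -0.39 (adjusted p = 0.201) without the third library at 1 µg/ml and 24 h. Groups of 3 libraries were not tested for outlying values with Dixon's test, and the effect of leaving out each library is given below.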

How the results depend on the processing

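No value reversed its direction where it was called. Of the 217 gene values, RLE scaling kept the direction and the side of the threshold for 217, no filter for 212 (5 newly called), leaving out LOC118568312 for 215 (2 newly called), thinning to the smallest total for 213, only the libraries compared for 212 and DESeq2 for 213 (4 lost). Of 42 values that columns of 1 header spelling allowed, 40 were kept. Of 1806 values with 1 library left out, 1770 were kept, 26 were lost and 10 were newly called; those values stand beside their results in the report. The count of genes that differed at 100 µg/ml and 2 h from untreated was 1 to 2 with 1 library left out, and 1 without the second library of either group. The dose difference by time was called for 4 genes with no filter, against 2: Fn1 (adjusted p = 1.9e-07) and Tnc (0.0449) were added, and the cause was not tested. Calls near the threshold were those of Postn at 1 µg/ml and 2 h (adjusted p = 0.053 by DESeq2), Tnc between 100 and 10 µg/ml at 24 h (0.0503) and Thbs2 between 100 and 1 µg/ml at 48 h (0.0591). No paired analysis was possible because the labels give the libraries no replicate number that is shared across groups.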
